A study of Mus musculus with 8 samples.

Results

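The dual-specificity MAP kinase phosphatases described here are 8 genes, Dusp1, Dusp2, Dusp4, Dusp5, Dusp6, Dusp7, Dusp10 and Dusp16, chosen by family membership and not by their values. All 8 were among the 13708 genes in the deposited count table and passed the filter on low counts. They were measured by RNA-seq in LSK cells, the marrow fraction without lineage antigens that carries Sca-1 and c-Kit and holds blood stem and multipotent progenitor cells. The 4 db/m libraries are labelled B6.BKS(D)-Leprdb/+ and heterozygous for the leptin receptor mutation, and the 4 db/db libraries are labelled B6.BKS(D)-Leprdb/J and homozygous for it, a genotype that gives obese, diabetic mice. Every library of both genotypes is labelled as 6 months after diabetes, the labels name no agent, and all 8 titles carry the name db/m, so the genotype label set the groups. The labels give neither sex nor pooling nor whether each library is a separate mouse, and the p-values therefore measure the spread between these samples, which may be technical in part.

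These enzymes remove phosphate from both the threonine and the tyrosine of the activation loop of MAP kinases and so end the signal of ERK, JNK and p38. Many of them are transcribed in response to the very kinases they switch off, which makes them feedback regulators with short-lived transcripts. Growth factor receptors of blood progenitors such as Kit and Flt3 signal through ERK, and JNK and p38 respond to stress and inflammatory cytokines.

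Library totals in the count table ran from 27640853 to 42806327. Kit (563 to 1054 CPM), Cd34 (652 to 1099 CPM), Flt3 (456 to 605 CPM) and Ly6a (91.7 to 568 CPM) were present in every library, and the groups lay apart for Ly6a, which encodes Sca-1, at 317 to 568 CPM in db/m against 91.7 to 178 CPM in db/db. CPM are counts scaled to a common library total, after each total was multiplied by its factor from TMM, a scaling method of edgeR. These factors ran from 0.944 in db/m replicate 2 to 1.039 in db/db replicate 2. Of the libraries, db/m replicate 3 had an intergenic share of 12.2% of uniquely mapped reads, against 23.4% to 26.5% in the other 3 db/m libraries and 5.15% to 11.9% in db/db. Results that rest on it are given with and without it.

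Promoter sequences are shown for 4 members, chosen after their values were seen: Dusp1 and Dusp6, whose means were higher in db/db, and Dusp5 and Dusp10, which were lowest in db/m replicate 3 by the widest margin. Each is the stretch from 250 to 51 bases before the RefSeq gene start, from the RefSeq promoter table of build GRCm38.p6, written from 5′ to 3′ on the gene's strand. The table held 7 of the 8 members. The windows are chr17:26508523-26508722 (minus strand) for Dusp1, chr10:99262981-99263180 (plus strand) for Dusp6, chr19:53528895-53529094 (plus strand) for Dusp5 and chr1:184034131-184034330 (plus strand) for Dusp10. Capitals mark matches to the cyclic AMP response element (CRE, TGACGTCA), to its core TGACG, and to the CArG box that serum response factor binds.
Dusp1: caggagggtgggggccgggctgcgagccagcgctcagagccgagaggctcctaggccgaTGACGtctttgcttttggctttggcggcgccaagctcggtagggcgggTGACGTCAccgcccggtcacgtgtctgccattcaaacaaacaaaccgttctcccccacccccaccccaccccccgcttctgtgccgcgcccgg
Dusp6: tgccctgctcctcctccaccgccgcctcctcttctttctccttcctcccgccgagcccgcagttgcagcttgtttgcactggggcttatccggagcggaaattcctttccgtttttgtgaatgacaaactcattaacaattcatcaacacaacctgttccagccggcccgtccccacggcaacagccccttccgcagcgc
Dusp5: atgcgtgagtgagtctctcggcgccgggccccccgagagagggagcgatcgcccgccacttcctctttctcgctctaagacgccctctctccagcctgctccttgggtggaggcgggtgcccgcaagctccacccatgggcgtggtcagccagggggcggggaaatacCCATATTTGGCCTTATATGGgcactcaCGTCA
Dusp10: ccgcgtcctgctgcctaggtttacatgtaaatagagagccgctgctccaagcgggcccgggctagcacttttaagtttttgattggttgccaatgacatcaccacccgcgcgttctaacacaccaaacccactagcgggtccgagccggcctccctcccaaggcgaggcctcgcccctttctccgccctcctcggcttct

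In these windows, searched on both strands, Dusp1 held a full CRE whose 5′ base lies 143 bases before the start, a motif found in 0.828% of the 32851 windows of the same length in the table. Dusp5 held 2 adjoining CArG boxes, CCATATTTGG at 82 bases and CCTTATATGG at 72 bases before the start, and 1.16% of all windows held a CArG box. The CRE core TGACG, which also lies inside the full CRE, was present in Dusp1, Dusp5 and Dusp16, 3 of the 7 members searched, and in 12.7% of all windows. The GC box GGGCGG was present in 5 of the 7 (24.6% of all windows) and the E-box CACGTG in 2 of the 7 (4.34%). No match was found in the 7 windows for the AP-1 motif TGANTCA (5.57% of all windows), the ETS motif CCGGAAG (3.98%) or the kappaB site (5.71%). A match is a run of letters and no evidence of binding.

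No member passed the test between the genotypes. Dusp1, Dusp2 and Dusp6 had higher means in db/db, and the other 5 members had means within the spread of the libraries. In all, 0 of the 8 had an adjusted p under 0.05 by edgeR's quasi-likelihood test with Benjamini-Hochberg adjustment, against 5 of 13708 genes (0.0365%). DESeq2, limma-voom and edgeR's likelihood ratio test also called 0 of the 8. At an unadjusted p under 0.05, 3 of the 8 were higher in db/db, where 7.78% of all genes were, and 0 were lower, where 7.54% of all genes were. In the authors' deposited table, 0 of the 8 had a false discovery rate under 0.05, against 4.28% of all genes. For 0 of the 8 did the groups lie apart, against 4.5% of all genes apart on the higher side and 4.53% on the lower side. The median log2 fold change of the 8 was 0.25, and that of all genes was 0.01.

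**Figure D1:**
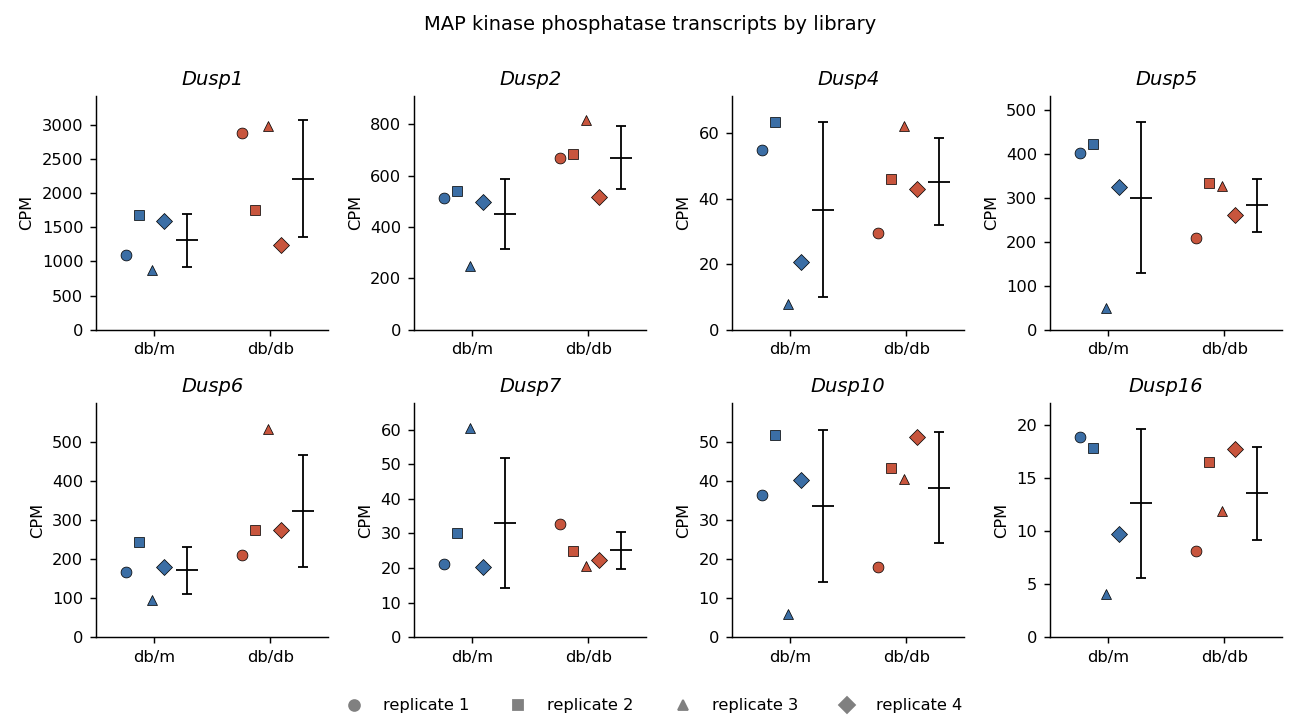
CPM of each of the 8 phosphatases (vertical axes, linear from 0) in the 4 db/m (blue) and 4 db/db (red) libraries, with the replicate shown by the marker shape and the group mean ± SD by the black bars. The triangle of db/m replicate 3 is the lowest of the 8 libraries in every panel but that of Dusp7, where it is the highest.

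Dusp1, Dusp2, Dusp4 and Dusp5 encode nuclear enzymes. Dusp1 is an immediate early gene whose product acts on p38, JNK and ERK. Its gene lies on chromosome 17 from 26505591 to 26508472 (mm10, minus strand). Dusp1 stood at 1097, 1676, 872 and 1591 CPM in db/m replicates 1 to 4 and at 2878, 1753, 2979 and 1240 CPM in db/db replicates 1 to 4. db/db replicates 1 and 3 were far above every other library, db/db replicate 4 lay inside the db/m range, and the groups overlapped. The db/m mean was 1309 ± 387 CPM and the db/db mean 2213 ± 854 CPM (SD, n = 4 each). The log2 fold change was 0.76 ± 0.31 (SE), with a 95% interval of 0.08 to 1.44 and an adjusted p of 0.278 by edgeR.

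Dusp2 encodes a phosphatase of activated blood cells that acts on ERK and p38, on chromosome 2 from 127336159 to 127338377. It stood at 514, 540, 247 and 497 CPM in db/m replicates 1 to 4 and at 667, 682, 815 and 516 CPM in db/db replicates 1 to 4. The db/m libraries other than replicate 3 lay close together, at 517 ± 21.6 CPM (SD, n = 3), and 3 of the 4 db/db libraries lay above all of them. The log2 fold change was 0.58 ± 0.24 (SE; 95% interval 0.04 to 1.11), with an adjusted p of 0.291 by edgeR.

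Dusp4 encodes an inducible nuclear phosphatase related to Dusp1, on chromosome 8 from 34807610 to 34819894. It stood at 54.8, 63.4, 7.90 and 20.7 CPM in db/m and at 29.7, 46.0, 62.4 and 43.1 CPM in db/db, in replicate order. The db/m libraries spanned the whole db/db range and beyond. The log2 fold change was 0.30 ± 0.53 (SE; 95% interval -0.88 to 1.48), with an adjusted p of 0.831 by edgeR.

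Dusp5 encodes a nuclear enzyme specific for ERK, on chromosome 19 from 53529318 to 53541322. It stood at 404, 423, 50.4 and 326 CPM in db/m and at 209, 335, 328 and 261 CPM in db/db, in replicate order. db/m replicate 3 was far below all other libraries, and db/m replicates 1 and 2 were above all db/db libraries. The log2 fold change was -0.09 ± 0.50 (SE; 95% interval -1.19 to 1.02) with an adjusted p of 0.959 by edgeR. Without db/m replicate 3 it was -0.45 ± 0.18, with an unadjusted p of 0.0349 and an adjusted p of 0.286. The deposited model of Dusp5 covers the coding sequence alone (1155 bases), and an antisense gene, AC137853.2, has exons inside it in GENCODE M21. The sources used here do not give the strand setting of the counting. Antisense reads made up 45.2% to 45.7% of the sense and antisense coding reads in every library, so the 2 cannot be told apart.

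Dusp6 and Dusp7 encode cytoplasmic phosphatases selective for ERK, and Dusp6 is itself a widely used readout of ERK activity. The Dusp6 gene lies on chromosome 10 from 99263231 to 99267489. Dusp6 stood at 166, 243, 94.9 and 181 CPM in db/m replicates 1 to 4 and at 211, 274, 533 and 274 CPM in db/db replicates 1 to 4. All but 1 of the db/db libraries lay above all db/m libraries, and db/db replicate 3 was the highest by a wide margin. The means were 171 ± 60.7 and 323 ± 143 CPM (SD, n = 4 each). Its log2 fold change of 0.92 ± 0.33 (SE; 95% interval 0.18 to 1.65) was the largest of the 8 members and had the smallest p, 0.0192 unadjusted and an adjusted p of 0.226 by edgeR. Without db/db replicate 3 the log2 fold change was 0.56, and without both db/m replicate 3 and db/db replicate 3 it was 0.36, with an adjusted p of 0.300 and 0.288.

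Dusp7, on chromosome 9 from 106368632 to 106375723, stood at 21.2, 30.1, 60.3 and 20.2 CPM in db/m and at 32.7, 24.9, 20.5 and 22.2 CPM in db/db, in replicate order. It was the only member that was highest in db/m replicate 3, at 2.53 times the mean of the other 3 db/m libraries. The log2 fold change was -0.40 ± 0.34 (SE) with an adjusted p of 0.624 by edgeR, and it was 0.06 without db/m replicate 3.

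Dusp10 and Dusp16 encode phosphatases that prefer JNK and p38. Dusp10, on chromosome 1 from 184034461 to 184075636, stood at 36.3, 51.7, 6.05 and 40.1 CPM in db/m and at 18.01, 43.2, 40.5 and 51.1 CPM in db/db, in replicate order. Dusp16, on chromosome 6 from 134715468 to 134792628, stood at 18.8, 17.8, 4.03 and 9.73 CPM in db/m and at 8.08, 16.5, 11.9 and 17.7 CPM in db/db. In both genes db/m replicate 3 was the lowest library and db/db replicate 1 the next lowest, and the remaining libraries of the groups were mixed. The gene Gm36328 on the other strand has exons inside Dusp16, so the strand limit of Dusp5 holds for it too. The log2 fold changes were 0.19 ± 0.53 for Dusp10 (SE; 95% interval -0.99 to 1.37) and 0.10 ± 0.44 for Dusp16 (95% interval -0.88 to 1.09), with an adjusted p of 0.904 and 0.941 by edgeR.

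**Figure D2:**
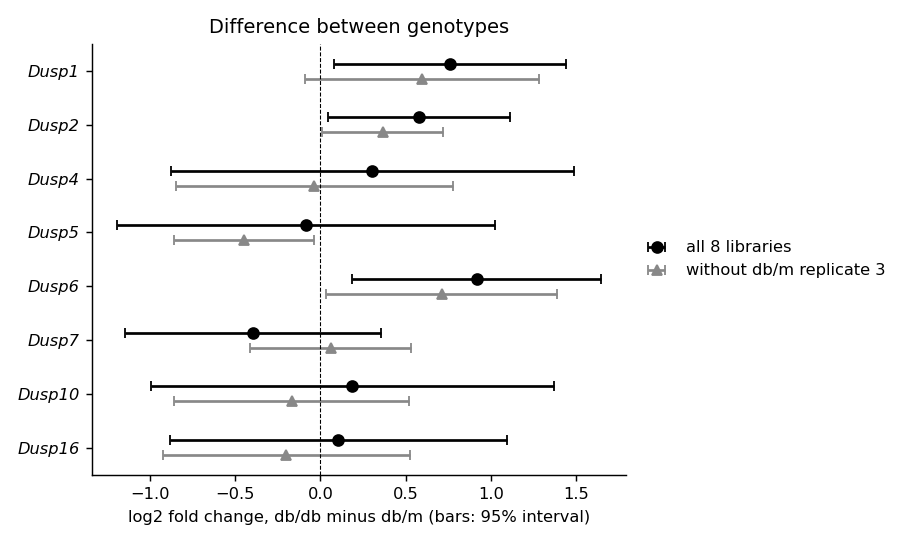
Log2 fold change of db/db against db/m (horizontal axis) for each member, with 95% intervals, from all 8 libraries (black circles) and without db/m replicate 3 (grey triangles). The intervals of Dusp1, Dusp2 and Dusp6 lie above 0 with all libraries, and the fold changes of Dusp4, Dusp7, Dusp10 and Dusp16 change sign when db/m replicate 3 is left out.

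Per kilobase of gene length, the members spanned a wide range and kept 1 order of their means in both genotypes. That order was Dusp1, Dusp2, Dusp5, Dusp6, Dusp4, Dusp10, Dusp7 and Dusp16, from a level of 674 ± 199 RPKM (CPM per kilobase of gene length) for Dusp1 to 2.47 ± 1.37 RPKM for Dusp16 in db/m (SD, n = 4). In db/db the levels ran from 1139 ± 440 RPKM to 2.65 ± 0.862 RPKM. Dusp2 (278 ± 84.1 RPKM) and Dusp5 (260 ± 149 RPKM) did not differ beyond their spread in db/m, where Dusp2 was the higher of the pair in 2 of 4 libraries. In db/db their ranges did not overlap, with 414 ± 75.8 RPKM for Dusp2 and 245 ± 51.6 RPKM for Dusp5. The neighbours Dusp5 and Dusp6, Dusp4 and Dusp10, and Dusp10 and Dusp7 had overlapping ranges in both genotypes. Compared within each library, Dusp5 was above Dusp6 in 4 of 4 libraries of each genotype. Dusp4 was above Dusp10, and Dusp10 above Dusp7, in 3 of 4 libraries of each genotype. Dusp1 supplied between 47.5% and 71.0% of the summed CPM of the 8 members in each library. That sum was 1342 CPM in db/m replicate 3, 2312 to 3045 CPM in the other db/m libraries and 2425 to 4790 CPM in db/db.

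**Figure D3:**
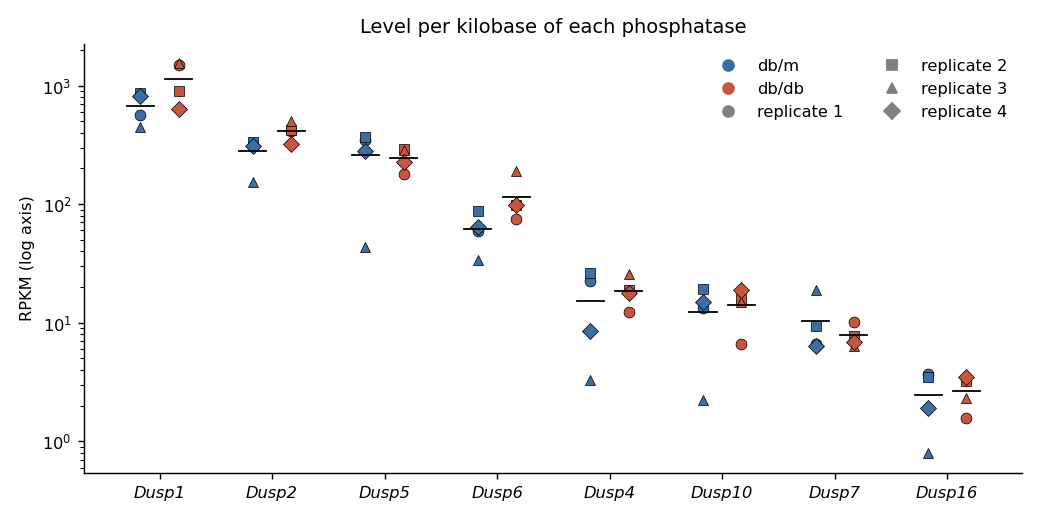
Level of each member in RPKM (log axis) in every library, ordered by the db/m mean, with the genotype shown by colour, the replicate by marker shape and the group mean by a black line. Dusp1 is the highest and Dusp16 the lowest of the 8 genes in both genotypes, and the db/m replicate 3 triangle lies below the rest for all members but Dusp7.

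With all libraries, Dusp2, Dusp4, Dusp5, Dusp7, Dusp10 and Dusp16 varied more within db/m than within db/db. Dusp1 and Dusp6 varied more within db/db, where their coefficients of variation were 38.6% and 44.3% against 29.6% and 35.5% in db/m. Without db/m replicate 3, the db/m SDs of Dusp2, Dusp5 and Dusp10 fell to 21.6, 51.7 and 8.01 CPM. These were below the db/db SDs of 123, 59.6 and 14.2 CPM. The SD of Dusp4 stayed larger in db/m (22.6 against 13.4 CPM). Those of Dusp7 (5.45 against 5.42 CPM) and Dusp16 were then close in the groups. db/m replicate 3 was the lowest of all 8 libraries in 7 of the 8 members, where it was the lowest in 16.4% of all genes, and the highest in Dusp7, where it was the highest in 17.5% of all genes. Relative to the mean of the other 3 db/m libraries on the log2 CPM scale, it was lower by a difference of -2.92 in Dusp5, -2.79 in Dusp10, -2.39 in Dusp4 and -1.86 in Dusp16. In these 4 the other db/m libraries averaged 7.63, 7.06, 5.86 and 3.84 times its CPM. The difference was smaller in Dusp2 (-1.06), Dusp6 (-1.03) and Dusp1 (-0.71), and it was 1.36 in Dusp7. Over all genes the median of this difference was 0.03, and the 5th and 95th percentiles were -1.28 and 0.93. Dusp8, a further phosphatase of JNK and p38, had 14.3, 14.5, 0.654 and 12.5 CPM in db/m and 3.22, 14.05, 14.6 and 13.4 CPM in db/db, in replicate order, so it was also at its lowest in db/m replicate 3. Dusp9, a cytoplasmic ERK phosphatase, was low throughout, with means of 2.20 ± 1.05 CPM for db/m and 1.72 ± 0.148 CPM for db/db (SD, n = 4 each).

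Immediate early genes, which are transcribed within minutes of MAP kinase signalling, were also low in db/m replicate 3. Of 20 immediate early genes, 19 were lowest in db/m replicate 3, with a median log2 difference of -2.09 from the other db/m libraries. Nr4a1, an orphan nuclear receptor induced within minutes of stimulation, stood at 3924, 3578, 167 and 2209 CPM in db/m replicates 1 to 4. Fosb, a subunit of AP-1, stood at 384, 800, 34.9 and 758 CPM in the same order. The exception was Srf, the factor that binds CArG boxes, with a difference of 0.04. Among 16 ERK feedback and target genes, 7 were lowest and 2 highest in db/m replicate 3 (median difference -0.64, inside the 5th to 95th percentile of all genes), and Myc, like Dusp7, was highest there, at 544 CPM against 155 to 195 CPM in the other db/m libraries. The median difference was -0.07 for 10 MAP kinases, -0.06 for 7 MAP kinase kinases and -0.11 for 17 MAP3 kinases and Raf genes. Mapk3, which encodes an ERK protein, differed by 0.0019, and Mapk14, which encodes p38 alpha, by -0.07, while the atypical kinase gene Mapk6 differed by -1.67. The atypical phosphatases of the Dusp name and their relatives, 14 tested, had a median difference of -0.31.

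**Figure D4:**
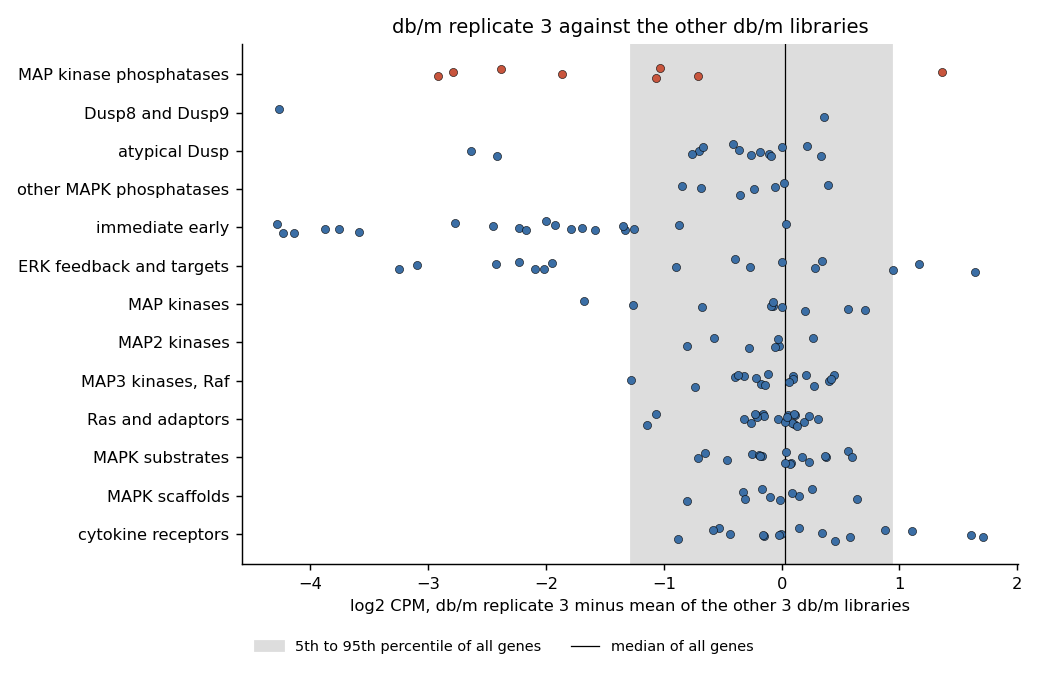
Difference in log2 CPM between db/m replicate 3 and the mean of the other 3 db/m libraries (horizontal axis) for every tested gene of the 13 lists, 1 point per gene, with the 8 members in red. The grey band spans the 5th to 95th percentile of all genes, -1.28 to 0.93, and 4 members and most immediate early genes lie to its left.

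All 15 plasma cell markers had negative log2 fold changes, and their summed level was 6197 CPM in db/m replicate 3, against 15723 to 21866 CPM in the other db/m libraries and 1987 to 7710 CPM in db/db. Neutrophil markers, 8 genes, summed to 53.4 CPM there, 183 to 454 CPM in the other db/m libraries and 25.5 to 619 CPM in db/db. The sums of 10 granulocyte and monocyte markers were 3239 to 13728 CPM in db/m against 2164 to 5553 CPM in db/db. Those of 7 B cell markers were 248 to 477 against 112 to 341 CPM, of 12 T and NK cell markers 297 to 485 against 233 to 283 CPM, and of 8 dendritic cell markers 714 to 875 against 656 to 805 CPM. The highest gene of the dendritic list was Flt3 (456 to 605 CPM), which the sorted cells also carry. Xcr1 stood at 0.518 to 3.69 CPM and Clec9a at 1.14 to 5.35 CPM. In the T and NK list the highest gene was Nkg7 (120 to 333 CPM), and Cd3e stood at 0.0485 to 6.93 CPM. Of these lists, 1 T and NK cell marker, Gzma, had a library at 0. The part of cell composition in the levels of db/m replicate 3 was not tested, and in bulk RNA fewer cells of a type cannot be told apart from less RNA per cell. Nothing in the labels separates this library by batch, since it shares its title prefix with db/m replicates 1 and 2.

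When db/m replicate 3 was left out, the members' log2 fold changes split evenly, 4 positive and 4 negative, with a median of 0.01. The log2 fold changes of Dusp1, Dusp2 and Dusp6 were then 0.59, 0.37 and 0.71, with an adjusted p of 0.403, 0.315 and 0.308 by edgeR. At an unadjusted p under 0.05 by edgeR, 3 of the 8 members remained in this fit, against 2063 of 13708 genes in either direction. These were Dusp2 (0.0448) and Dusp6 (0.0424), higher in db/db, and Dusp5 (0.0349), lower.

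The summed markers of erythroid and of megakaryocyte cells did not overlap between the genotypes and were higher in db/db. All 12 erythroid markers had positive log2 fold changes, and their summed level was 874 to 1197 CPM in the db/m libraries and 1691 to 4864 CPM in the db/db libraries. The highest sum was in db/db replicate 3, the library that was also highest in the CPM of Dusp1, Dusp2 and Dusp6. The lowest db/db sum was in db/db replicate 1, where Dusp1 stood at 2878 CPM. For Dusp1 the order of these 2 libraries, 2979 CPM in db/db replicate 3 against 2878 CPM, depends on the TMM scaling. Of 10 megakaryocyte markers, 9 were positive, with sums of 730 to 1367 CPM for db/m against 1707 to 2801 CPM for db/db. The highest of these sums was in db/db replicate 4, which had the lowest db/db levels of Dusp1 (1240 CPM) and Dusp2 (516 CPM). All 9 macrophage markers were positive, but the groups overlapped, with 726 to 1178 CPM for db/m against 182 to 3685 CPM for db/db, the lowest in db/db replicate 3. No marker of these 3 lists had a library with a count of 0. Their part in the differences of Dusp1, Dusp2 and Dusp6 was not tested.

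Of 16 ERK feedback and target genes tested, 0 passed the adjusted threshold by edgeR's quasi-likelihood test. At an unadjusted p under 0.05, 4 were higher and 0 lower, 12 of the 16 log2 fold changes were positive and 4 negative, and their median was 0.35. Against all such counts at the unadjusted level, here and for the lists that follow, stand the shares of all genes, 7.78% higher and 7.54% lower. Spry1, an inhibitor of receptor tyrosine kinase signalling to ERK, stood at 57.1, 88.1, 41.7 and 92.6 CPM in db/m and at 169, 196, 237 and 182 CPM in db/db, in replicate order. All 4 db/db libraries lay above all db/m libraries. Its log2 fold change was 1.49 ± 0.24 (SE) with an adjusted p of 0.0797 by edgeR, and 1.30 with an adjusted p of 0.0381 without db/m replicate 3. Over 20 alternative fits the value ran from 1.20 to 2.24, and Spry1 passed in 6 of them. Etv5, an ETS factor induced by ERK, went from 48.8 ± 13.3 to 86.7 ± 18.3 CPM (SD, n = 4 each; adjusted p 0.128 by edgeR), and Spred1, an inhibitor of Ras signalling, from 69.1 ± 17.2 to 90.8 ± 8.59 CPM (adjusted p 0.313). In the authors' deposited table the false discovery rate was 1.09e-05 for Spry1, 0.0258 for Etv5 and 0.307 for Spred1.

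Upstream of ERK, Gab1, an adaptor that links receptors to Ras, stood at 34.6, 34.5, 27.3 and 29.3 CPM in db/m and at 62.1, 58.0, 54.4 and 49.4 CPM in db/db, in replicate order. The groups did not overlap, and the log2 fold change was 0.83 ± 0.13 (SE) with an adjusted p of 0.0740 by edgeR, which was 0.0439 without db/m replicate 3. Rasgrp3, which loads Ras with GTP, went the other way, from 44.1 ± 16.4 to 12.6 ± 7.96 CPM (SD, n = 4 each; adjusted p 0.105 by edgeR). These were the smallest p-values among 21 Ras and adaptor genes, of which 2 had an unadjusted p under 0.05 on the higher and 2 on the lower side. Map2k2, a kinase of ERK, went from 158 ± 12.6 to 128 ± 7.76 CPM (adjusted p 0.198 by edgeR), and Map3k10, a kinase of the JNK cascade, from 13.9 ± 1.04 to 8.99 ± 1.26 CPM (adjusted p 0.142). Of 10 MAP kinases, Mapk11 was lower (18.2 ± 4.93 to 11.9 ± 2.42 CPM) and Mapk9 higher (99.8 ± 9.22 to 117 ± 2.87 CPM) at an unadjusted p under 0.05, and neither passed after adjustment (adjusted p 0.262 and 0.319 by edgeR). Of 17 substrate kinases and factors, 4 were lower and 0 higher at that unadjusted level, led by the ribosomal S6 kinase Rps6ka2 (19.9 ± 6.03 to 10.03 ± 2.18 CPM; adjusted p 0.115 by edgeR). Of 10 scaffold genes 1 was higher and 1 lower, and of 7 other MAP kinase phosphatases outside the Dusp family 0 were on either side. The authors' deposited table gave a false discovery rate of 1.81e-04 for Gab1, 0.00361 for Rasgrp3 and 0.0208 for Rps6ka2. That rate was over 0.05 for Map2k2, Map3k10, Mapk11 and Mapk9.

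Among receptors that feed these cascades, 4 of 16 were higher and 3 lower at an unadjusted p under 0.05. After adjustment, 0 passed by edgeR's quasi-likelihood test. Csf2rb, the shared chain of the interleukin-3 and GM-CSF receptors, went from 109 ± 39.7 to 56.2 ± 9.30 CPM, and Epor, the erythropoietin receptor, from 10.9 ± 3.21 to 30.3 ± 15.9 CPM (SD, n = 4 each; adjusted p 0.108 and 0.111 by edgeR). In the authors' deposited table the false discovery rate was 0.00813 for Csf2rb and 0.00841 for Epor. Of the 20 immediate early genes, 2 had an unadjusted p under 0.05. These were Klf2, a quiescence factor of lymphocytes and endothelium, with means of 404 ± 233 CPM for db/m against 1242 ± 593 CPM for db/db, and Klf6, at 1146 ± 674 and 2870 ± 1107 CPM. In both genes the groups did not overlap, and neither passed after adjustment (adjusted p 0.127 and 0.192 by edgeR). Their false discovery rates in the authors' deposited table were 0.0139 for Klf2 and 0.0557 for Klf6. The median log2 fold change of these 20 genes was 0.43 with all libraries, 0.19 without db/m replicate 3 and -0.17 without both db/m replicate 3 and db/db replicate 3.

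**Figure D5:**
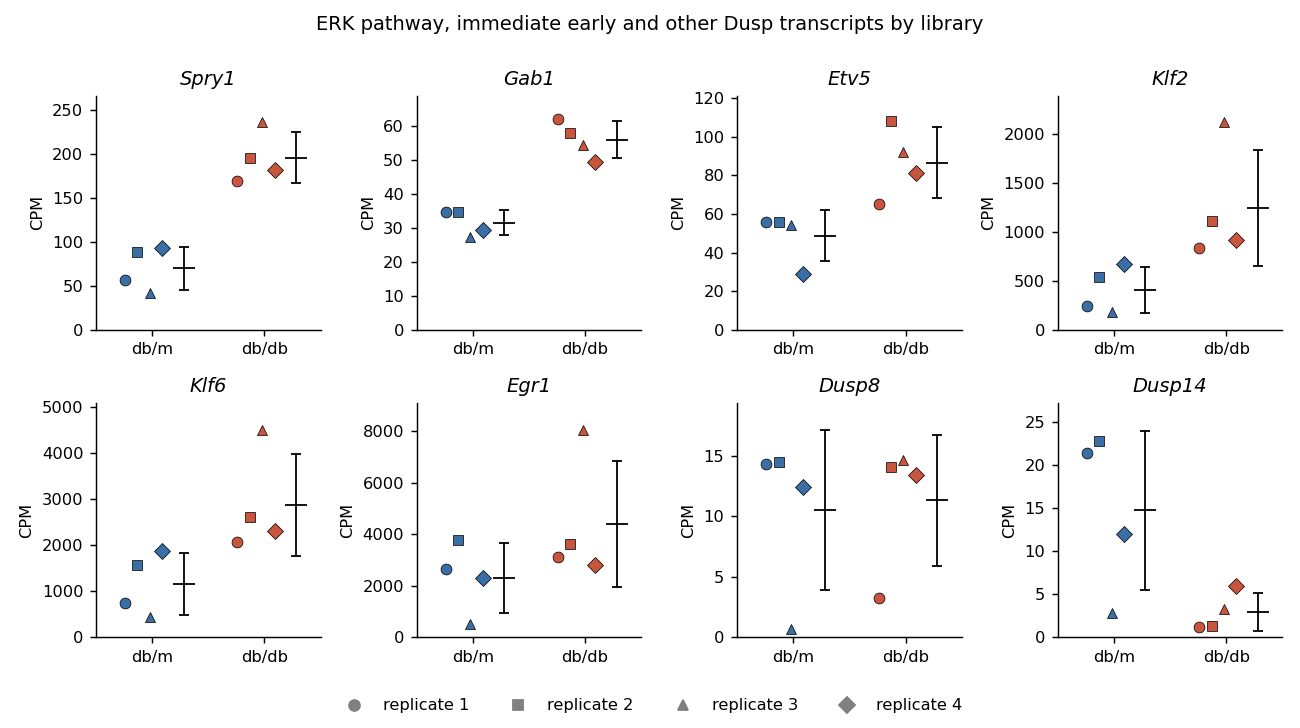
CPM (linear axes from 0) of 8 genes related to the phosphatases in each db/m (blue) and db/db (red) library, with the replicate shown by marker shape and the mean ± SD by black bars. Spry1, Gab1, Etv5, Klf2 and Klf6 do not overlap between the genotypes. Spry1, Gab1, Klf2, Klf6, Egr1 and Dusp8 are lowest in db/m replicate 3.

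In the atypical branch, the members of the Dusp name are mostly small phosphatases without the MAP kinase binding domain. Dusp14 stood at 21.4, 22.7, 2.83 and 11.96 CPM in db/m and at 1.16, 1.31, 3.28 and 5.96 CPM in db/db, in replicate order. It was high in db/m replicates 1, 2 and 4, which also had the highest plasma cell sums, and the part of these cells in its level was not tested. Its log2 fold change was -2.34 ± 0.69 (SE), with an adjusted p of 0.153 by edgeR. In the authors' deposited table its log2 fold change was -2.33 with a false discovery rate of 0.0243. Dusp22 went from 18.3 ± 2.12 to 11.5 ± 3.18 CPM with groups that did not overlap (adjusted p 0.187 by edgeR), and Dusp3, which acts on ERK and JNK, from 12.7 ± 4.23 to 19.2 ± 3.87 CPM (adjusted p 0.301). Of 14 tested in this list, which also holds the relatives Ssh1, Ssh2 and Ssh3, 1 was higher and 2 were lower at an unadjusted p under 0.05.

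The genes whose log2 CPM followed each member most closely over the 8 libraries were sought among 10184 genes of an average log2 CPM of at least 3, as a description only. Dusp5 was most like Pde4b, a cyclic AMP phosphodiesterase (Pearson r = 0.989, Spearman rho = 0.929), and Maff, a small Maf factor (r = 0.987, rho = 0.905), and r without the 2 libraries farthest from its median was 0.936 and 0.661. Dusp10 was most like Dusp8 (r = 0.985, rho = 0.643) and Ythdc1, a reader of methylated adenosine in RNA (r = 0.985, rho = 0.905). Without the 2 libraries farthest from the median of Dusp10, r was 0.0334 with Dusp8, a likeness that rests on those libraries, and 0.755 with Ythdc1. Dusp16 was most like Pag1, a membrane adaptor (r = 0.987, rho = 0.929), and Smad7, the inhibitor of TGF-beta signalling (r = 0.982, rho = 0.976), and r without the 2 farthest libraries was 0.991 and 0.966. Dusp4 was most like Tsc22d2 (r = 0.986, rho = 0.881) and Krt18, a keratin (r = 0.980, rho = 0.976), with 0.889 and 0.964 without the 2 farthest. Dusp6 was most like Klf4 (r = 0.970, rho = 0.952) and the histone gene Hist1h2bc (r = 0.959, rho = 0.881), with 0.797 and 0.721 without the 2 farthest. Dusp2 was most like Id1, an inhibitor of helix-loop-helix factors (r = 0.964, rho = 0.929), and Tob1, an antiproliferative factor (r = 0.962, rho = 0.810), and r fell to 0.632 and 0.633 without the 2 farthest. Dusp1 was most like Mprip (r = 0.924, rho = 0.881) and Rnf166 (r = 0.901, rho = 0.905), both with a narrow range, 280 to 351 and 120 to 157 CPM, and r was 0.847 and 0.959 without the 2 farthest. Dusp7 was most like Bace1, a secretase (r = 0.967, rho = 0.738), and Rsl1 (r = 0.963, rho = 0.667), and both were at their highest in db/m replicate 3, at 72.9 and 13.4 CPM. Without the 2 farthest libraries r was 0.720 and 0.842. The points share the same 8 libraries, and db/m replicate 3 lies at the end of the range in all of these genes.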

How the data were processed

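RNA was extracted with Trizol from cells sorted by flow cytometry, per the labels' protocols, and the submitters' processing notes name STAR 2.7.10a, mm10, featureCounts of Subread 2.0.3 and edgeR 3.40.2. The authors deposited raw read counts and log2 CPM values for 13708 genes (smallest row total 79), log2 fold changes, p-values and false discovery rates, a signed fold change kept as a score, and a mapping table of other per-region reads. The sources used here do not give the annotation, the strand setting or the filter applied before deposit. Rerunning a likelihood ratio test in edgeR gave the authors' p-values with differences of at most 1.28e-09.

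Counts were tested in R 4.3.3 with edgeR 4.0.16 (TMM scaling, filterByExpr, which removed 0 genes, quasi-likelihood test, no covariate), adjusted over all genes, threshold 0.05. SE is the size of the log2 fold change over the square root of F. RPKM used the deposited lengths. Promoter windows came from RefSeq. The fit was tested on simulated data. Alternatives were 2 other scalings, 2 other filters, DESeq2 1.42.0, limma 3.58.1, sva 3.50.0 and omitted libraries. Every pair of libraries of the same genotype differed by more than sampling noise, with a chi-square per gene of at least 47.9. Genes named are the members, up to 3 genes of smallest p from each of 12 pathway lists and the 2 genes most like each member. Genes printed outside this rule, among them Nr4a1, Fosb, Srf, Myc, Egr1, Mapk3, Mapk6 and Mapk14, were chosen after their values were seen. The members and lists were chosen with earlier results of these data known.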

Additional observations from a re-analysis of the deposited data

Results flagged for a closer look

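Within-group gaps were checked in 86 groups of 4 libraries (43 named genes in both genotypes), and 7 exceeded Dixon's critical value, where chance flags about 1 in 20. Dusp2 was set apart by its low level in db/m replicate 3, 247 CPM, with a gap of 0.853 of the group's range. Dusp8 was set apart in both groups, at 0.654 CPM in db/m replicate 3 and at 3.22 CPM in db/db replicate 1. Map3k10 stood at 12.4 CPM in db/m replicate 3, below the other db/m libraries. Braf stood at 46.0 CPM in db/m replicate 1, above the other db/m libraries. Etv5 stood at 28.9 CPM in db/m replicate 4, below the other db/m libraries. Klf4 stood at 327 CPM in db/db replicate 3, above the other db/db libraries.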

How the results depend on the processing

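The count of called members was 0 in all 20 alternatives, and Dusp1, Dusp2 and Dusp6 were positive in all 20, with adjusted p of 0.109 to 0.491, 0.119 to 0.515 and 0.0590 to 0.386. The count of called genes overall was 5, and it was 0 with upper-quartile scaling and with limma-voom, 192 with quality weights, 14 with the title prefix correlated, 1 with a surrogate variable, 587 with the likelihood ratio test, 767 with DESeq2, 195 without db/m replicate 3 and db/db replicate 3 together, and 0 to 90 when 1 library was left out. Dusp5 turned positive with limma-voom (0.28), with the title prefix correlated (0.29) and without db/m replicates 1, 2 and 4 (2.49). In that last fit the single db/m library is the lowest of all 8 in 7 of the 8 members, so their direction was set by the choice of library. Dusp16 turned negative with a surrogate variable (-0.062). With replicate 3 of both genotypes omitted, the values turned to -0.23 for Dusp4, 0.16 for Dusp7, -0.19 for Dusp10 and -0.14 for Dusp16. When 1 library was left out the log2 fold changes ran from -0.036 to 0.71 for Dusp4, -0.45 to 0.12 for Dusp5, -0.57 to 0.060 for Dusp7, -0.17 to 0.47 for Dusp10 and -0.20 to 0.37 for Dusp16. The cause of these turns was not tested. No paired analysis was possible because the replicate numbers are in accession order, and each title prefix occurs in 1 genotype.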
